A study of Mus musculus with 4 samples.

Results

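The 3 mouse genes Eif4g1, Eif4g2 and Eif4g3 encode the eIF4G scaffold proteins of translation initiation. They were taken by name from the 21887 protein-coding genes of the RefSeq table for GRCm38.p6, with earlier results of these data known. All 3 were kept, with or without peaks. Each gene was examined over its annotated span plus 5 kb on each side, and every peak lying wholly inside that window was kept. The peaks come from chromatin immunoprecipitation followed by sequencing (ChIP-seq) of the transcription factor Deaf1 in C2C12, a mouse myoblast cell line, myoblasts being the precursor cells of muscle, grown in culture with no further treatment in the labels. There were 2 libraries precipitated with an antibody against Deaf1 and 2 input libraries made without antibody. All 4 carry the same cell line label, so no second genotype, treatment or time was compared. The labels do not say whether the replicates were separate cultures.

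The eIF4G proteins hold the initiation machinery together. Eif4g1 and Eif4g3 bind the cap-binding protein eIF4E, the RNA helicase eIF4A, the poly(A)-binding protein and eIF3, and so bring the small ribosomal subunit to capped mRNA. Eif4g2, also called DAP5 or p97, shares the eIF4A- and eIF3-binding part but lacks the site for eIF4E, and is known for initiation without eIF4E. Deaf1 binds DNA through its SAND domain, with TTCG as the core of its sites. Deaf1 has been linked to Eif4g3 transcription before, in stromal cells of lymph nodes. Whether Deaf1 occupies the same gene and its paralogues in myoblasts is the question that the peak lists bear on here.

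The promoters of 2 of the 3 genes, Eif4g1 and Eif4g3 but not Eif4g2, were matched by symbol in the RefSeq promoter table (GRCm38.p6). The 250 bases before each annotated start are shown because they differ in the number of Deaf1 core motifs. Capitals mark TTCG, or its reverse complement CGAA. The Eif4g3 stretch is chr4:137993205-137993454 on the plus strand and the Eif4g1 stretch is chr16:20672477-20672726 on the plus strand.
Eif4g3: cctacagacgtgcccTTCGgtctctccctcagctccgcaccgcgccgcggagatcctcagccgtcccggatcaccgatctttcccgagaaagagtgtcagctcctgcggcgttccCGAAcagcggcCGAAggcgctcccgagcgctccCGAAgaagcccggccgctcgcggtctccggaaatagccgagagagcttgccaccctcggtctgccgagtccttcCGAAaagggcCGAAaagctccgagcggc
Eif4g1: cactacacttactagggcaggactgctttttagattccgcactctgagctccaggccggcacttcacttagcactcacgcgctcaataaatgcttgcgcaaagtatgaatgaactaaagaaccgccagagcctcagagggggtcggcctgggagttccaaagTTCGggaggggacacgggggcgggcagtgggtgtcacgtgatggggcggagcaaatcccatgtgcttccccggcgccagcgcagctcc

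Eif4g3 had 6 copies of the motif, counted on both strands with overlapping matches counted separately, and Eif4g1 had 1. The first bases of the Eif4g3 copies lay at positions -235, -135, -124, -102, -28 and -18 from the start. The copy at -235 was on the gene's strand and the other 5 were on the opposite strand. The last pair belongs to a repeated stretch, CGAAaagggc followed by CGAAaagctc. In the full promoter entry, which runs on to 50 bases after the start, the counts were again 6 and 1. Among 17492 protein-coding genes with a promoter entry, 37 (0.212%) had at least 6 copies, whereas 49.0% had at least 1. The median promoter had 0 copies. The Eif4g3 promoter was also rich in CpG, with 37 CpG dinucleotides against 23 at Eif4g1. Of the 1202 promoters with at least 37 CpG, 6 (0.499%) had 6 or more motif copies. Both the motif and the CpG number are descriptions of sequence, and neither marks a site of binding.

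The peak lists do not give read depth. Their size, expected background and summit fragments are described instead. Replicate 1 held 1860 peaks and replicate 2 held 3126. At the summits the expected background was at least 1.80 fragments for replicate 1 and at least 2.09 for replicate 2, which differ by a factor of 1.16. The median summit was covered by 22 and 23 fragments, and no listed summit had fewer than 10.

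Deaf1 peaks were present at Eif4g3 in both libraries and at neither of its paralogues. In the Eif4g3 window, chromosome 4 from 137986779 to 138212086, replicate 1 had 10 peaks and replicate 2 had 9. The authors' combined list for the pair had 4 regions there. The Eif4g1 window, chromosome 16 from 20667720 to 20697883, held 0 peaks in replicate 1, 0 in replicate 2 and 0 combined regions. The Eif4g2 window, chromosome 7 from 111062985 to 111088030, likewise held 0, 0 and 0. No peak reached partly into any of the 3 windows. Of all protein-coding genes, 9.65% had a peak of replicate 1 in such a window, 14.5% had a peak of replicate 2 and 8.96% had a combined region. A gene without a peak was therefore the usual case. The lists do not show signal below the caller's threshold, so a weaker occupancy at Eif4g1 or Eif4g2 was not measurable here.

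**Figure D1:**
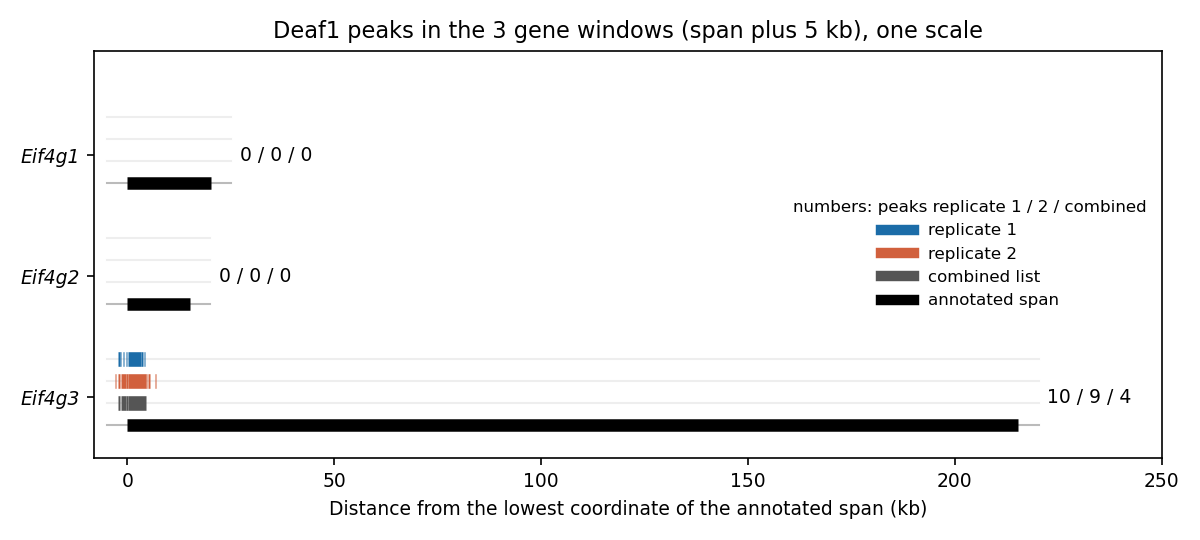
Windows of Eif4g1, Eif4g2 and Eif4g3 drawn to one scale, with the distance from the lowest coordinate of the annotated span in kb on the horizontal axis. Black bars are annotated spans, coloured bars are peaks of replicate 1 and replicate 2 and regions of the combined list. All 10, 9 and 4 rows at Eif4g3 sit at the left end of a span of 215.308 kb, and the other two windows are empty.

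Gene length differed among the paralogues. The span was 215.308 kb for Eif4g3, 20.164 kb for Eif4g1 and 15.046 kb for Eif4g2. The share of genes with a combined region was not higher among long genes. Of the 902 genes at least as long as Eif4g3, 36 (3.99%) had one, and of the 1770 genes with spans between those of Eif4g2 and Eif4g1, 206 (11.6%) had one. Among those 902 long genes, 2 had at least 10 peaks in replicate 1 and 3 had at least 9 in replicate 2, Eif4g3 included in each count.

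The peaks of Eif4g3 were gathered around its promoter. The promoter table places the start at position 137993455, with the gene on the plus strand, which is inside the annotated span because that span opens at 137991779. Which start C2C12 cells use is not known from these files, and distances below are from the promoter-table start. In replicate 1 the peaks ran from 137989467 to 137996051, a stretch of 6.585 kb of which they covered 80.3%. In replicate 2 they ran from 137988428 to 137998586, a stretch of 10.159 kb with 75.1% covered. Gaps between neighbouring peaks were 117 bp long at the median in replicate 1, ranging over 65 to 313 bp, and 212 bp in replicate 2, ranging over 53 to 1234 bp. The remaining 211.035 kb of the span in replicate 1 and 208.5 kb in replicate 2, up to the end of the gene, had no peak. Every one of these 19 summits was nearer to an end of Eif4g3 than to an end of any other gene in the table.

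**Figure D2:**
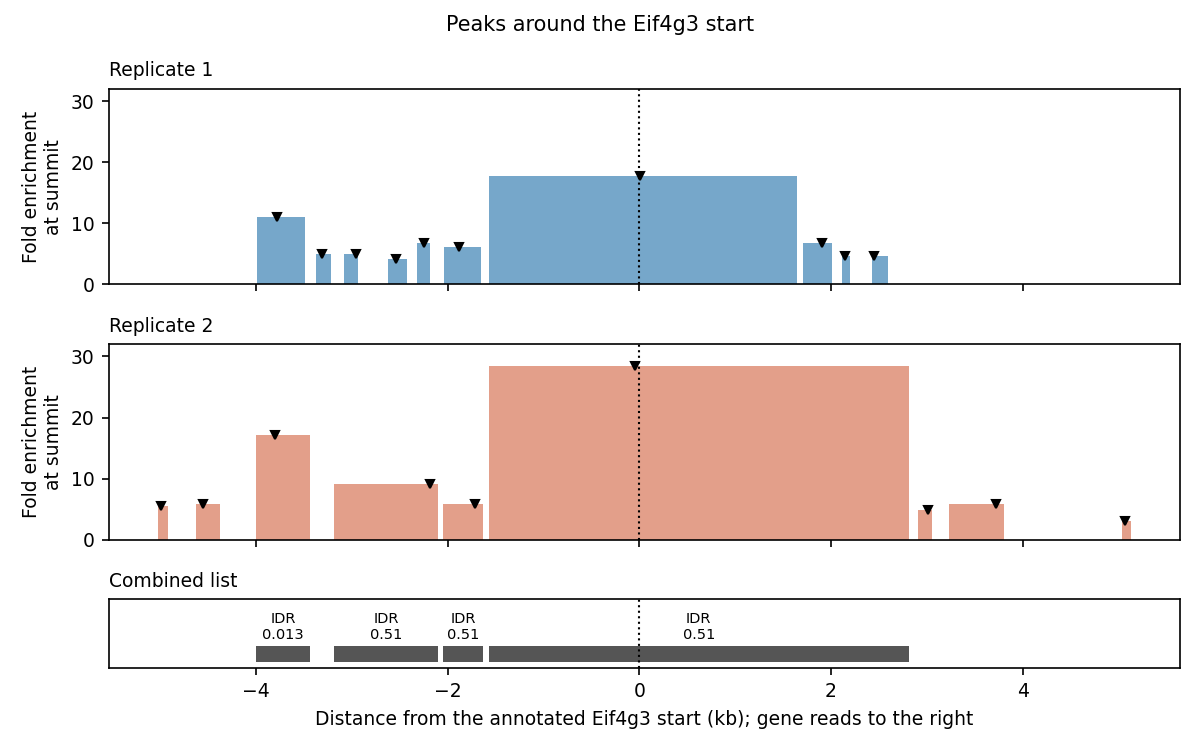
Peaks around the annotated Eif4g3 start, with distance from the start in kb on the horizontal axis and the authors' fold enrichment at the summit on the vertical axis. Each bar spans a peak's width at the height of its summit value, triangles mark summits, and the bottom panel shows the 4 combined regions with their irreproducible discovery rate (IDR). In both replicates the highest bar crosses the start and the next highest lies near -3.8 kb.

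The strongest peak of the locus covered the promoter-table start. In replicate 1 it ran from 137991883 to 137995100 (3218 bp), with its summit 11 bp downstream of the start. Fold enrichment there, the caller's ratio of ChIP to expected background at the summit, was 17.7, from 79 fragments (95% exact Poisson interval 62.5 to 98.5) over a background of 3.51. In replicate 2 it ran from 137991888 to 137996267 (4380 bp), with its summit 44 bp upstream of the start. Fold enrichment was 28.5, from 110 fragments (90.4 to 133) over a background of 2.90. These summits were 55 bp apart, that of replicate 2 inside the promoter sequence shown above and that of replicate 1 just after it. From the first base of the annotated span they lay 1687 bp (replicate 1) and 1632 bp (replicate 2) inside the gene. The mean fold enrichment was 23.1 ± 7.6 (SD, n = 2). The pileup ratio of replicate 2 to replicate 1 was 1.39 (95% exact interval 1.03 to 1.88), a range that includes the background ratio of 1.16. The intervals cover counting error only and treat fragments as independent. Duplicate reads may or may not have been removed, and with duplicates kept the intervals would be too narrow. Each count was taken at the summit of its peak, a choice the intervals do not allow for.

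This promoter peak ranked high in both lists. By fold enrichment it was 58th of 1860 in replicate 1 and 28th of 3126 in replicate 2. By width it ranked 5th and 9th. The peak alone made up 60.8% of the length covered by peaks at the locus in replicate 1 and 57.4% in replicate 2.

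A separate upstream peak was found in both libraries. In replicate 1 it spanned 137989467 to 137989962 (496 bp), with its summit 3784 bp upstream of the start. It had 30 fragments (20.2 to 42.8) and a fold enrichment of 11.1. In replicate 2 it spanned 137989450 to 137990017 (568 bp), with its summit 3809 bp upstream. It had 52 fragments (38.8 to 68.2) and a fold enrichment of 17.2. The summits were 25 bp apart, and the mean fold enrichment was 14.1 ± 4.3 (SD, n = 2). This peak lies outside the annotated span, 2108 bp before it by the replicate 1 summit. The nearest end of another protein-coding gene, Ece1 (endothelin-converting enzyme), was 24442 bp away from that summit.

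The start was more heavily covered than the upstream site in each library. The pileup ratio was 2.63 (95% exact interval 1.71 to 4.15) in replicate 1 and 2.12 (1.51 to 3.0) in replicate 2. Both sites were compared as the 2 with the most fragments in each library, so neither ratio could fall below 1. For that reason the intervals give counting error and do not test the order of the sites. Expected background also differed, at 3.51 under the start and 1.80 upstream in replicate 1, and at 2.90 and 2.09 in replicate 2. In fold enrichment the ratio was 1.60 in replicate 1 and 1.66 in replicate 2. The order of the strongest 2 sites at Eif4g3 was thus the same in both libraries.

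The other peaks had fewer fragments. In replicate 1 the 8 remaining peaks had between 12 and 19 fragments and fold enrichments between 4.13 and 6.85, and in replicate 2 the 7 remaining peaks had between 14 and 27 fragments and fold enrichments between 3.08 and 9.07. The median peak of each whole list had a fold enrichment of 6.87 in replicate 1 and 6.41 in replicate 2, and 8 of 10 and 6 of 9 Eif4g3 peaks were below it. The weakest peak by fold, in replicate 2 and 5073 bp downstream of the start, had 14 fragments over a background of 3.87 and a q of 0.042. Summits lay on both sides of the start, with 6 upstream and 4 downstream in replicate 1 and 6 upstream and 3 downstream in replicate 2. Counted from the first base of the span, the numbers were 6 and 4 in replicate 1 and 5 and 4 in replicate 2.

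**Figure D3:**
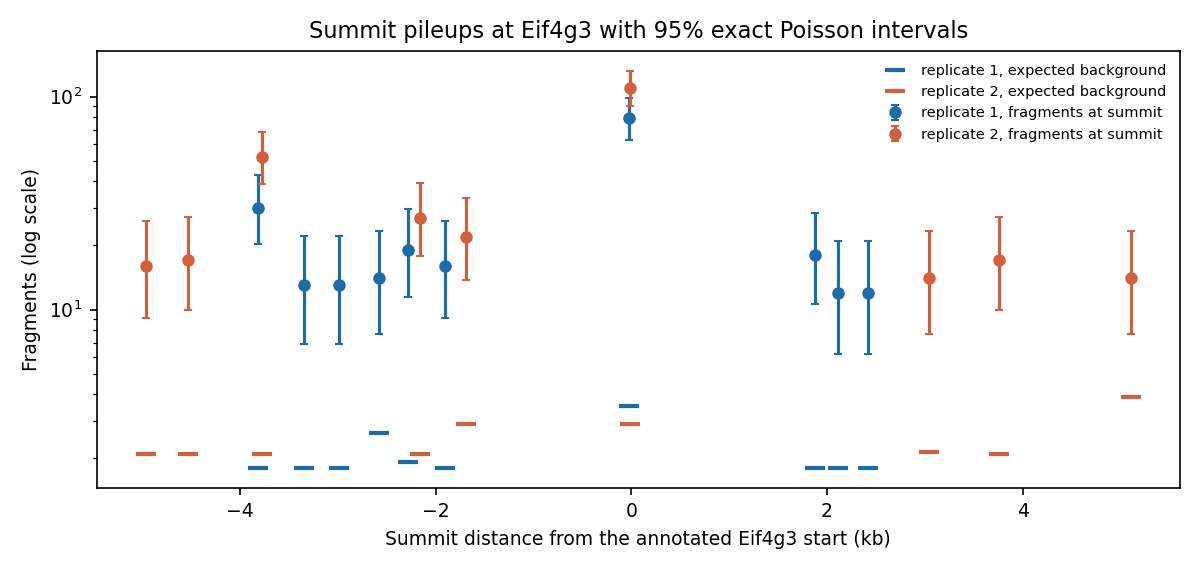
Fragments at each Eif4g3 summit (points, with 95% exact Poisson intervals) and the background expected there (short bars), on a log scale, against the summit's distance from the start in kb. The start has the most fragments, 79 and 110. The site near -3.8 kb has 30 and 52. Its replicate 1 interval (20.2 to 42.8) overlaps those of lower summits, and its replicate 2 interval (38.8 to 68.2) overlaps that of the next summit (17.8 to 39.3).

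The start and the upstream site had a peak in both libraries, whereas some of the other peaks had no partner. Replicate 1 had 9 of its 10 peaks matched by an overlapping peak in the other library, the exception being the peak from 137990080 to 137990238 with 13 fragments. Replicate 2 had 4 of its 9 peaks matched. The 5 unmatched peaks of replicate 2 lay at the outer edges, 2 upstream and 3 downstream. The matching was often many to one: the replicate 2 peak at the start overlapped 4 peaks of replicate 1, and that from 137990268 to 137991349 overlapped 3. With summits required to lie within 100 bp of each other, 3 peaks of each library were matched.

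The combined list had 4 regions at the locus, and their IDR did not follow their strength. The IDR, computed here from the scaled score, estimates the share of irreproducible regions among all regions ranked at least as high. The upstream region, from 137989450 to 137990017, had an IDR of 0.013 and ranked 147th of 1550 by score. The region over the start, from 137991883 to 137996267, had an IDR of 0.51 although its mean fold enrichment was the highest of the 4. It held 4 peaks of replicate 1 and 1 of replicate 2, and its width of 4385 bp ranked 9th in the list. The region from 137990268 to 137991349, with 3 peaks of replicate 1 and 1 of replicate 2, averaged a fold enrichment of 7.96 ± 1.56 (SD, n = 2), and its IDR was 0.51. The region from 137991403 to 137991824 contains the first base of the annotated span. Its fold enrichment was 6.07 in replicate 1 and 5.90 in replicate 2, averaging 5.98 ± 0.12 (SD, n = 2). The IDR was again 0.51. An IDR of 0.51 goes with the lowest score in the list, 121, which 377 regions share.

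Clusters of this size around a start were rare in these lists. Counting peaks that overlap the 5 kb on each side of the start, Eif4g3 had 10 in replicate 1, and 5 of 17492 genes (0.029%) had as many. The others were Ski with 14, Commd3 with 13, and Cdc27 and Myl4 with 11 each. In replicate 2 Eif4g3 had 8, which 12 genes (0.069%) reached. Eif4g1 had 0 in each library, like most genes. Neighbouring genes can share peaks in this count. It also depends on how the caller splits a covered stretch. Joined over gaps of up to 1 kb, the Eif4g3 peaks formed 1 block in replicate 1 and 2 in replicate 2. The ranking of genes was not repeated for joined peaks. In strength, the best peak of the Eif4g3 window ranked 74th of the 2112 genes with a peak in replicate 1 and 38th of 3171 in replicate 2, where the median best peaks were 7.50 and 7.36.

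**Figure D4:**
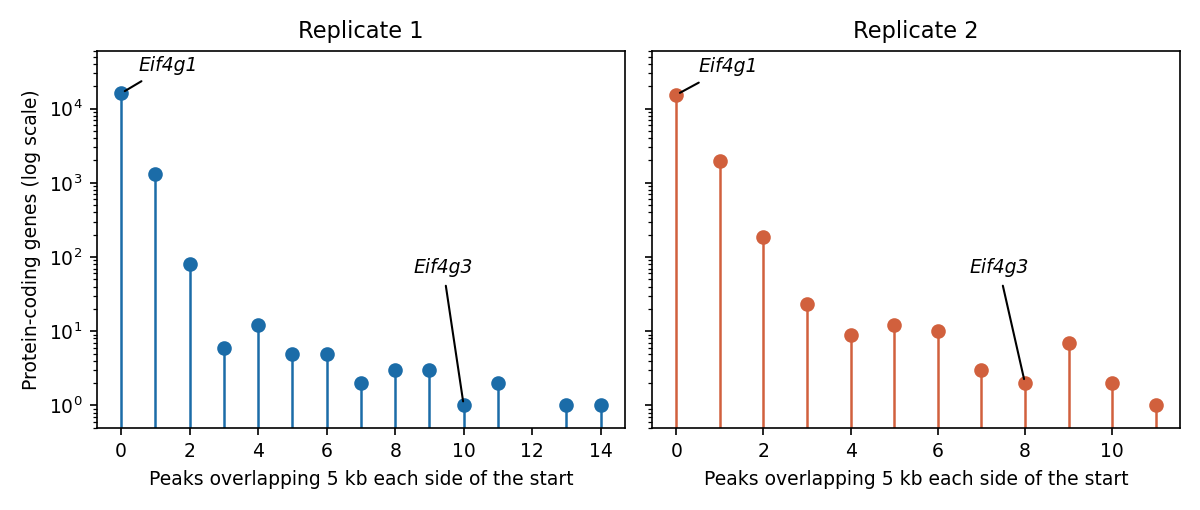
Number of protein-coding genes (log scale) against the number of peaks overlapping the 5 kb on each side of the annotated start, in replicate 1 and replicate 2. Eif4g3 lies far to the right with 10 and 8 peaks, and Eif4g1 is among the genes with 0.

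The motif number was set beside occupancy over all promoters. Of the 17492 promoters of 300 bp, 1109 (6.34%) overlapped a combined region by at least 1 bp, that of Eif4g3 among them and that of Eif4g1 not. Promoters with a region had a median of 1 motif copy and 23 CpG, and the others had medians of 0 copies and 12 CpG. Of the 37 promoters with at least 6 copies, 12 (32.4%) overlapped a region. Among the initiation genes listed below, Eif4b and Eif2s2 also had 6 copies but 0 peaks in both libraries, whereas Eif4e2 had 0 copies and 2 combined regions. Of the 1202 promoters with at least as many CpG as Eif4g3, 89 (7.40%) overlapped a region. These are descriptions across promoters, which were not matched on other features.

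The nearest peaks to the empty windows belonged to other genes. On the low-coordinate side of Eif4g1, replicate 2 had a peak 21.031 kb away, from 20651582 to 20651689, with 23 fragments and a fold enrichment of 6.15. Its summit was 508 bp from an end of Psmd2, which encodes a proteasome subunit. Replicate 1 had none within 574 kb on that side. On the other side, both replicates had a peak from 20717693 to 20717824, 24.81 kb away at an end of Clcn2, a chloride channel gene. It had 21 fragments in replicate 1 and 27 in replicate 2, fold enrichments of 7.85 and 8.93, and an IDR of 0.045. For Eif4g2 the nearest peak in each library lay about 39.0 kb away at an end of Ctr9, which encodes a subunit of the PAF1 transcription elongation complex. It had 20 fragments and a fold enrichment of 7.50 in replicate 1, and 25 fragments and 5.34 in replicate 2. These peaks were 91 to 132 bp wide and showed no cluster of the kind seen at Eif4g3. Beyond the far end of Eif4g3, replicate 2 had a peak of 13 fragments (6.92 to 22.2) from 138217003 to 138217176, 9917 bp past the span. Its summit was 623 bp from an end of Hp1bp3, a gene for a heterochromatin-binding protein. This peak was outside the window, and replicate 1 had 0 peaks at Hp1bp3.

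Initiation genes, among them partners of eIF4G, were examined in the same windows through a list of 50. Group names below are headings of that list and do not give the role of every member. Of these, 17 (34.0%) had a peak in replicate 1, 24 (48.0%) in replicate 2 and 17 (34.0%) had a combined region, beside 9.65%, 14.5% and 8.96% of all protein-coding genes. Among 8 genes listed as cap-binding and eIF4F, not all of which encode parts of eIF4F, Eif4e2, Eif4a1 and Eif4a3 had a region. Eif4e, the main cap-binding protein, had none. Among 12 regulators and partners of eIF4G, the regions were at Eif4ebp2, whose product sequesters eIF4E, and Paip1, which binds the poly(A)-binding protein. The eIF3 complex, which joins eIF4G to the ribosome, had regions at 7 of 14 genes: Eif3c, Eif3d, Eif3h, Eif3i, Eif3k, Eif3l and Eif3m. Among 11 genes listed under start-site selection and the ternary complex, regions were at Eif1ad, Eif2s1, Eif2s3x and Eif5b. Among 5 genes of the exchange factor eIF2B, the region was at Eif2b1. At Paip1, Eif2s1 and Eif5b both summits were closer to an end of another gene (4833420G17Rik, Atp6v1d and Txndc9), and at Eif1ad the replicate 1 summit was closest to an end of Banf1. These regions cannot be given to 1 gene. The windows of Eif2b1, Eif4e2, Eif4a1, Eif3c, Eif3i and Eif3k also had the same strongest fold enrichments as a neighbouring gene's window in both libraries. For Eif2b1 that neighbour was Gtf2h3. A region in a window therefore does not assign it to the initiation gene.

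Initiation genes with a region had compact peaks, unlike Eif4g3. None of the 50 had more than 2 peaks in either library, and their strongest peaks were at most 406 bp wide in replicate 1 and 502 bp in replicate 2. Compact peaks were also usual in the whole lists. Median widths there were 135 bp (replicate 1) and 152 bp (replicate 2), and 45 of 1860 and 70 of 3126 peaks were over 1 kb. Few peaks per gene were usual too. Within 5 kb of the start, 1317 of 17492 genes had 1 peak and 80 had 2 in replicate 1. The compact form is therefore not particular to initiation genes. The 5 with the largest mean fold enrichment were Eif2b1 with 19.0 ± 1.6, Eif4a3 with 16.3 ± 2.9, Eif3l with 13.1 ± 3.3, Eif4e2 with 12.3 ± 2.9 and Eif3m with 11.3 ± 0.90 (SD, n = 2 each). Eif4g3, with 23.1 ± 7.6, had the higher mean, but its SD reaches below that of Eif2b1.

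Single libraries gave the order differently. In replicate 1 the fold enrichment was 17.8 at Eif2b1 and 17.7 at Eif4g3, and in replicate 2 it was 20.1 and 28.5. In fragments, Eif4g3 had 79 against 49 in replicate 1, a ratio of 1.61 (95% exact interval 1.11 to 2.35), and 110 against 61 in replicate 2, a ratio of 1.80 (1.31 to 2.51). Against Eif3l the ratio was 1.44 (1.01 to 2.06) in replicate 1, and in replicate 2 it was 1.77 (1.29 to 2.46). By fragments, the Eif4g3 summit had more fragments than that of Eif2b1 or Eif3l in both libraries, while in fold enrichment the replicate 1 values of Eif4g3 and Eif2b1 were nearly equal.

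**Figure D5:**
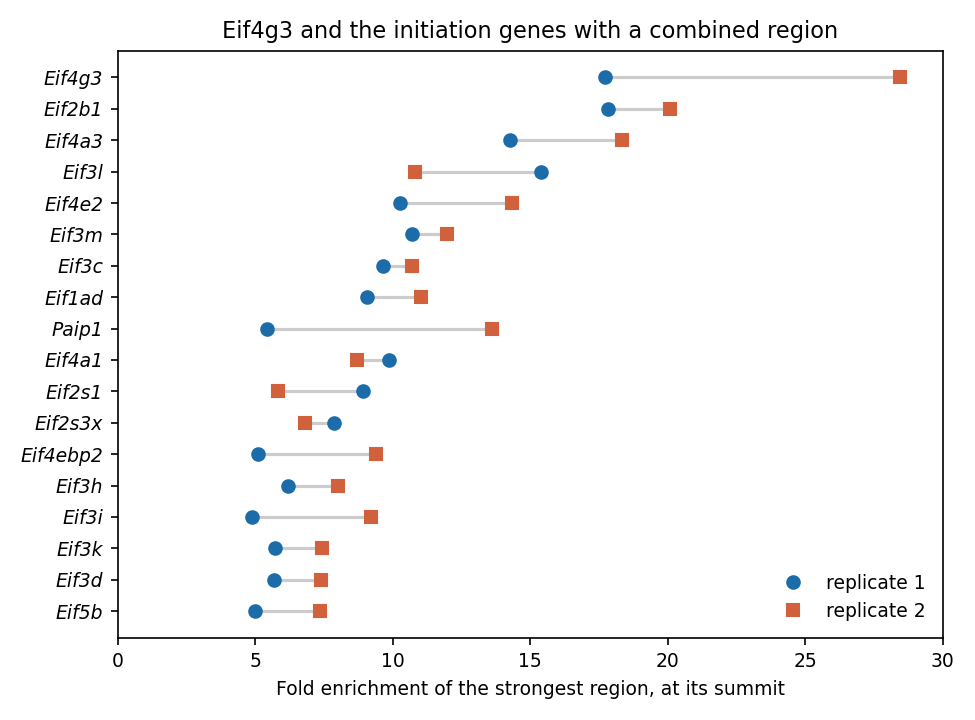
Fold enrichment at the summit of the strongest combined region of Eif4g3 and of the 17 listed initiation genes with such a region, in replicate 1 (circles) and replicate 2 (squares), ordered by their mean. Eif4g3 is highest in replicate 2 at 28.5, and in replicate 1 it lies at 17.7 beside Eif2b1 at 17.8.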

How the data were processed

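Peaks of 2 Deaf1 ChIP libraries and the list combining them were analysed. The 2 inputs enter through the background in the lists. The submitters' processing notes name FastQC 0.11.8, BWA 0.7.17-r1198, MACS2 2.1.2 and the build mm10. Duplicate removal is not given in the sources used here. The labels' protocols describe fixation and sonication, and also call the assay native. Per the file layout, the deposited fold enrichment is a ratio of ChIP to background at the summit. The deposited p is the −log10 of the p-value and the deposited q is the −log10 of the q-value. The deposited score of the combined list is the scaled IDR, and its 6 further per-sample columns were not used.

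Pileup and background at each summit were recovered from fold and p by the MACS2 formula. In both lists 100% of peaks had exactly 1 solution, with an error of at most 5.1e-05 in −log10 p. The procedure was tested on simulated data. Python 3.11.15, pandas 2.3.3 and scipy 1.17.1 were used.

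Ratios of pileups have exact conditional binomial intervals. With 2 libraries of 1 group no test between groups was possible, so p-values are not given. Named genes were the 3 Eif4g genes, the genes nearest to their peaks and every listed initiation gene with a combined region. All 50 listed symbols matched the gene table, and values are given for the 5 strongest. Ece1, Hp1bp3, Banf1, 4833420G17Rik, Atp6v1d, Txndc9, Gtf2h3, Eif4e, Eif4b, Eif2s2 and the genes with large clusters at their start were named after their values were seen. Members and lists were chosen with earlier results of these data known. Gene models with exons were not used here.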

Additional observations from a re-analysis of the deposited data

How the results depend on the processing

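The counts at Eif4g1 and Eif4g2 were 0 in all 34 alternatives run for them. Narrower flanks, stricter thresholds and single lists could only give 0, because the main windows were empty. The 10 kb flank and the 1 bp overlap could not reach a peak either, since the nearest lay 21.031 kb from a span. These alternatives are therefore no separate support for the absence. The number of Eif4g3 peaks depended on the settings, since most of them have few fragments and lie close together. A flank of 1 kb left 5 peaks in replicate 2 and 2 combined regions. Without a flank there were 4 peaks in replicate 1, 4 in replicate 2 and 1 region. A −log10 q of at least 5 left 5 in replicate 1, and an IDR of at most 0.05 left 1 region, the upstream one. Joining peaks over gaps of up to 1 kb, an alternative chosen after seeing the data, gave 1 block in replicate 1, 2 in replicate 2 and 1 in the combined list. With either replicate left out, the single lists gave 9 to 10 peaks in place of 4 regions, and the strongest fold enrichment ran from 17.7 to 28.5. Of the 9 shared peaks of replicate 1, 3 were matched with a reciprocal overlap of 50% and 3 with summits within 100 bp. The share of all genes with a peak fell without a flank to 2.41% in replicate 1, 3.85% in replicate 2 and 1.97% in the combined list, and the initiation genes to 3, 5 and 3. At an IDR of at most 0.05 they were 4.06% and 9 genes. No paired analysis was possible because the lists give the input only as a modelled background at ChIP peaks, with no peak or signal of an input library to compare, and both ChIP libraries belong to 1 group. Summits of 12 to 27 fragments have wide counting intervals, which limits comparison of single peaks between libraries.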
